A study of Mus musculus with 18 samples.

Results

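Bilateral orchidectomy (OD), the surgical removal of both testes, was compared with a sham operation in the initial segment (IS) and caput of the mouse epididymis, the duct that receives sperm from the testis. The comparison was defined by the library titles, which name 3 IS-caput libraries BOD and 3 sham, so it holds 6 of the 18 libraries of the series. The 6 mice were wild-type B6D1F1 males operated at 8 weeks of age and sampled 4 weeks later, at 12 weeks, with 1 mouse for each library by the study's methods. The sham-operated controls also went through surgery and kept both testes. Bilateral OD removed testicular hormones in blood and testicular fluid in the duct together, so the 2 losses cannot be told apart within these 6 libraries. Stranded mRNA libraries were read from a single end, and the values are FPKM, fragments per kilobase of transcript scaled to the reads mapped in each library, for 24346 genes. The other libraries of the series also entered the fit used for testing. They came from mice at 12 weeks after unilateral OD, the removal of 1 testis, and from *Nell2* knockout and wild-type mice at 14 weeks.

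The epididymal epithelium secretes proteins that coat and mature sperm, and the IS and caput are its most active secretory regions. The duct depends on the testis by an endocrine route, in which testosterone reaches it through the blood and is converted there to dihydrotestosterone, and by a lumicrine route, in which testicular factors such as NELL2 arrive through the lumen. Principal cells make most of the secretion, clear and narrow cells acidify the lumen, and basal cells lie under them. Whole tissue was sequenced, so fewer cells of a type and less RNA per cell cannot be told apart in any value given here.

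The sham libraries matched their label as IS-caput tissue, with *Lcn8*, a lipocalin of this region, at 18468, 18018 and 14325 FPKM. *Lcn8* was nearly lost after bilateral OD, so it could not mark the region there. The epithelial genes *Krt18* and *Epcam* were above 250 FPKM in every library of both groups. On log2 values, Pearson r across genes was 0.974 to 0.985 within groups and 0.826 to 0.837 between them. From 12525 to 12551 genes reached 1 FPKM in sham and 12761 to 12892 after bilateral OD. Sham replicate 3 and bilateral OD replicate 1 stood apart from their groups. Of 6587 genes averaging 10 FPKM or more in sham, 22 were at least 2-fold above both other sham libraries in replicate 3, against 2 and 4 in the others. Among them were secretory genes such as the lipocalin gene *Lcn5*, at 1507, 1612 and 5708 FPKM in sham. Of 6498 genes averaging 10 FPKM or more after bilateral OD, 48 were at least 2-fold below both other libraries in replicate 1, against 6 and 3. Among these were connective tissue genes such as *Dcn*, which encodes the collagen-binding proteoglycan decorin, at 188, 749 and 736 FPKM.

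Expression changed in most of the transcriptome. Of 17302 genes tested, 5429 (31.4%) were lower after bilateral OD and 5253 (30.4%) were higher by limma with Benjamini-Hochberg adjusted p under 0.05, and 6620 were not called. In what follows values are given for replicates 1, 2 and 3 in that order or as mean ± SD of 3 libraries, and log2 changes, computed after adding 0.1 FPKM, with their standard error or alone. The 3 bilateral OD values all lay below the 3 sham values for 31.9% of genes and all above for 31.4%. Most changes were modest, with a median absolute log2 change of 0.51, and 1929 genes fell and 2077 rose by at least 2-fold on the log2 scale. Large changes were mainly losses. At least 10-fold, 595 genes (3.44%) were lower and 261 (1.51%) were higher, and 109 fell against 15 that rose by 32-fold or more on the log2 scale. Among the 10-fold falls, 167 genes had a sham mean of at least 10 FPKM and 275 a mean under 1 FPKM. Among the 10-fold rises, 33 had at least 10 FPKM after bilateral OD and 142 had under 1.

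**Figure D1:**
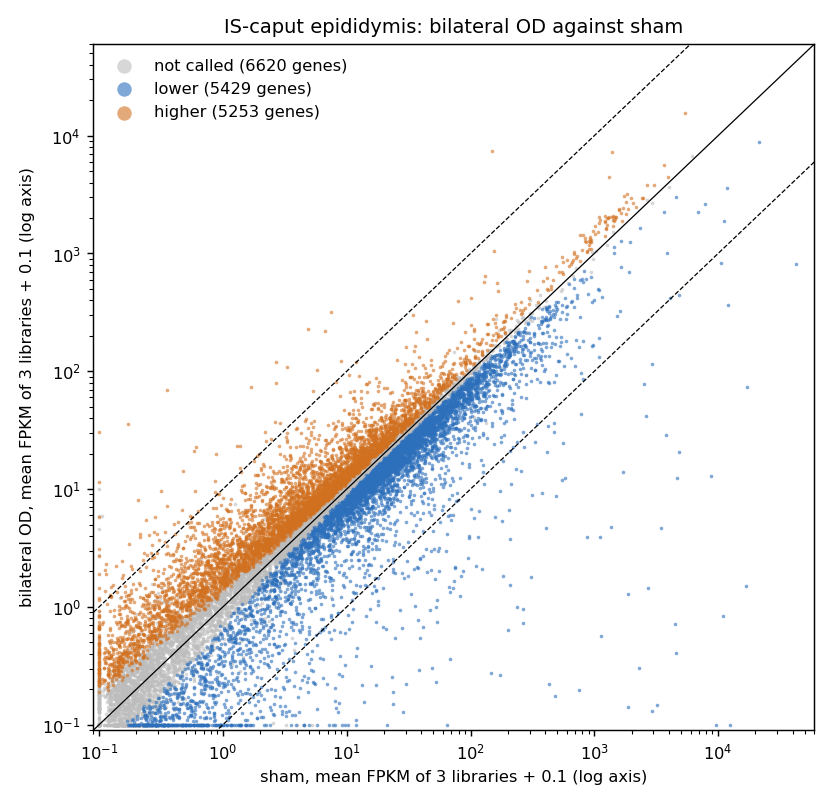
Mean FPKM of 3 sham libraries (x axis) against mean FPKM of 3 bilateral OD libraries (y axis) for the 17302 genes tested, both on log axes after adding 0.1. Points are coloured by call (5429 lower, 5253 higher, 6620 not called), the solid line marks equality and the dashed lines a 10-fold difference, and the genes furthest below the lower dashed line include *Defb18*, at 0 in each bilateral OD library.

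The direction of change followed the level of expression. Among 4386 genes with a mean under 1 FPKM over the 6 libraries, 16.4% were lower and 21.5% higher, and among 6239 genes of 1 to 10 FPKM, 23.4% were lower and 40.3% higher. The balance turned at 10 to 100 FPKM, where 46.6% of 5860 genes were lower and 27.3% higher, and at 100 to 1000 FPKM, where 67.6% of 709 were lower and 18.8% higher. It turned back for the 108 genes of 1000 FPKM or more, of which 39 were lower, 23 of them at least 10-fold, and 62 were higher. FPKM are relative to each library's total, so a few very abundant genes bear on all others. Scaled to the total without the 100 highest genes of each group, the median of all genes moved up by 0.29 on the log2 scale, 3414 genes were lower and 8116 were higher, and the share of calls that were higher went from 49.2% to 70.4%. Directions below are those of the FPKM as deposited, and where that scaling moved the share of lower genes among a list's calls by more than 10 percentage points its counts are given beside it, or as rescaled, with the lower count first.

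The mRNA pool was redistributed away from secretory genes. The 12 secretory family lists together, 284 genes, held 32.3%, 32.1% and 30.9% of all summed FPKM in the sham libraries and 7.70%, 7.11% and 6.91% after bilateral OD. The 3 sham shares were all above the 3 others, which by the exact two-sided permutation test gives p = 0.1, the smallest value that 3 libraries against 3 allow. The exact permutation test gave p = 0.1 for each of the shares that follow. The β-defensins, small cationic antimicrobial proteins, went from 11.3 ± 0.571% to 2.24 ± 0.234%, the lipocalins, carriers of small hydrophobic molecules, from 5.62 ± 0.252% to 0.253 ± 0.0144% and the glutathione peroxidases, which reduce peroxides, from 5.32 ± 0.214% to 0.281 ± 0.0156% (mean ± SD, n = 3). Without *Gpx5*, the epididymal glutathione peroxidase that makes up nearly all of its family's pool, that family's share was 0.0980 ± 0.00342% in sham and 0.130 ± 0.00291% after bilateral OD. The share of the cytosolic ribosomal proteins was larger after bilateral OD, going from 11.4 ± 0.708% to 22.7 ± 0.207%. The 10 genes of highest mean FPKM in sham, chosen on these values, went from 20.6 ± 0.966% to 3.01 ± 0.276%. Of the 105 genes above 1000 FPKM in sham, 66 were also above it after bilateral OD, and the 50 highest genes of each group had 21 in common.

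**Figure D2:**
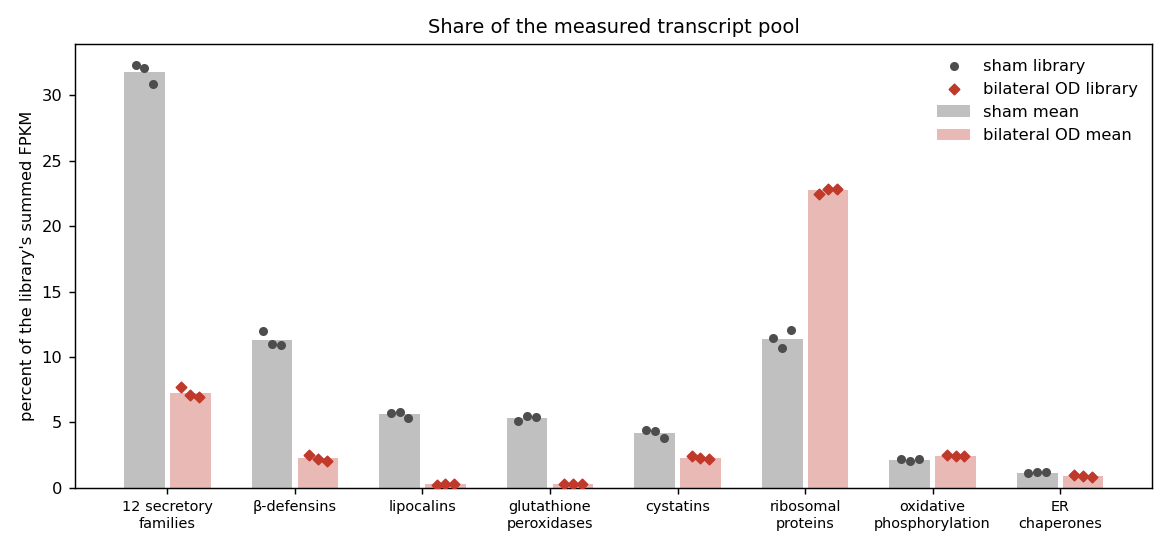
Percent of each library's summed FPKM (y axis) held by 8 gene groups, with bars for the mean of 3 libraries and points for each sham and bilateral OD library. The 12 secretory families fell from 31.8% to 7.24% of the pool and the ribosomal proteins went from 11.4% to 22.7%, with no overlap between groups. The summed FPKM to which each share refers was itself smaller after bilateral OD.

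The largest falls were losses of epididymal secretory and membrane protein genes to values at or near 0. *Defb18*, a β-defensin gene (NCBI gene 654460, chromosome 1 from 18236402 to 18237476 on GRCm38), stood at 14221, 11071 and 12099 FPKM in sham and was listed at 0 in each bilateral OD library (adjusted p = 5.1e-24). *Lcn9*, a lipocalin gene of chromosome 2, stood at 10246, 10100.1 and 8764 FPKM in sham and was also listed at 0 in each (adjusted p = 7.4e-16). No fold is given for these 2 genes, whose log2 values depend on the 0.1 FPKM added before logs. *Lcn8* fell from 18468, 18018 and 14325 FPKM to 1.56, 1.32 and 1.3 (log2 change −13.47 ± 0.15, adjusted p = 9.7e-19). In none of these genes did the groups overlap.

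The other 9 of the 12 largest falls were of the same kind. *Lcn10* went from 2455, 2287 and 2133 FPKM to 0.155, 0.239 and 0.216 (log2 change −12.89 ± 0.11, adjusted p = 6.4e-22), and *Rnase10*, encoding a secreted protein of the RNase A family, from 4641, 4717 and 3991 FPKM to 0.425, 0.655 and 0.789. The *Teddm* genes encode membrane proteins of the epididymal epithelium, and all 3 were near 0 after bilateral OD. *Teddm1a* went from 3470.2, 3265 and 2909.6 FPKM to 0, 0.0891 and 0.0536, *Teddm2* from 1966, 1950.4 and 1689.7 FPKM to 0.0482, 0.0744 and 0 and *Teddm1b* from 482, 483 and 488 FPKM to 0.181, 0.0465 and 0. The flavin monooxygenase gene *Gm4846* (2723, 3271 and 2821 FPKM in sham), the β-defensin genes *Defb48* (12247, 11161 and 9675) and *Defb45* (791, 571 and 911) and the Ly6 family gene *Ly6g5c* (4885, 4442 and 4369) each had at least 1 bilateral OD library at 0 and none above 1.33 FPKM. In all, 244 genes with FPKM above 0 in each sham library were at 0 in each bilateral OD library, and 138 genes showed the reverse.

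**Figure D3:**
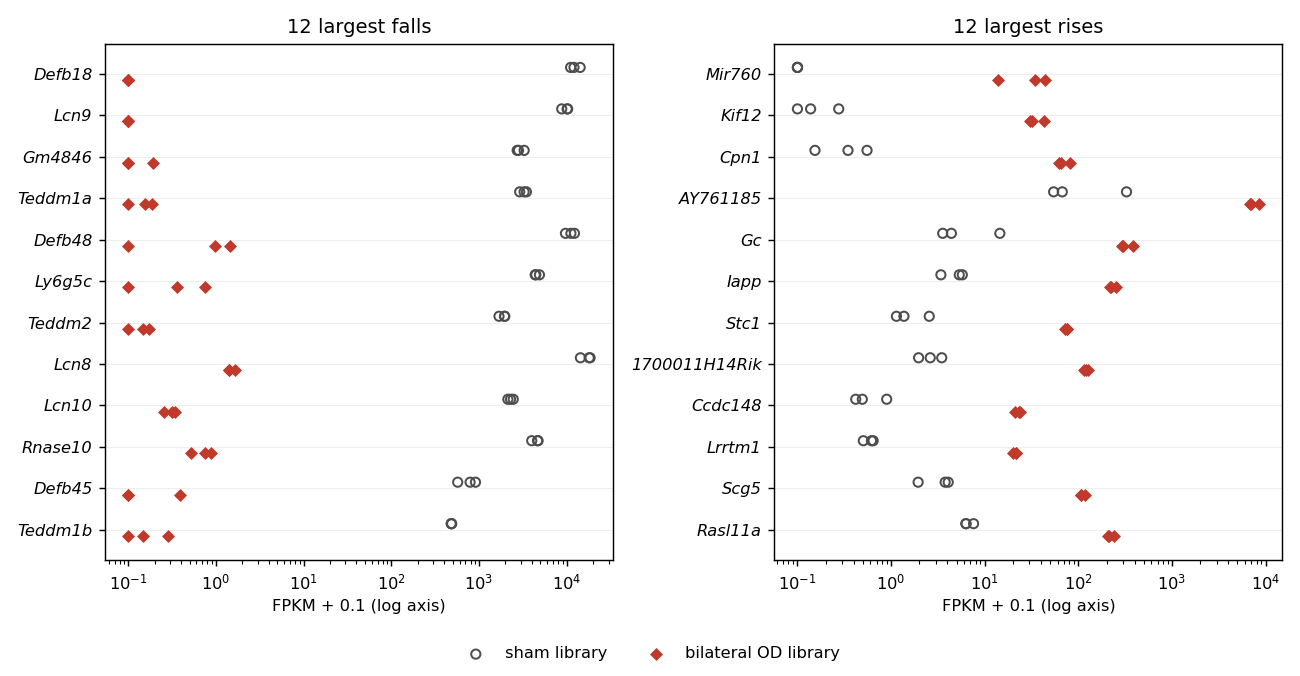
FPKM plus 0.1 on a log axis in each of the 3 sham libraries (open circles) and the 3 bilateral OD libraries (diamonds) for the 12 largest falls (left) and the 12 largest rises (right). In every gene shown the groups do not overlap, and the 12 falls end near the lower limit of the axis while the 12 rises start between 0 and 327 FPKM.

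Measured in FPKM rather than fold, the largest fall was that of *Gpx5*, from 41014, 41905 and 43703 FPKM to 972, 759 and 733 (log2 change −5.7 ± 0.09, adjusted p = 2.8e-18). It was the most abundant transcript of sham tissue and remained measurable after bilateral OD. *Defb25* fell from 19301, 16285 and 15662 FPKM to 82, 74.6 and 61.9 (log2 change −7.88 ± 0.23, adjusted p = 5.2e-13) and *Defb20* from 12648, 11435 and 11691 to 444, 331 and 319 (log2 change −5.05). *Spag11b*, whose product is a β-defensin-like sperm-binding protein, fell less in proportion, from 21764, 20589.9 and 22341 FPKM to 10378, 8374 and 7729 (log2 change −1.3 ± 0.10, adjusted p = 5.7e-09), and was the second most abundant transcript left after *Clu*. *Lcn2*, encoding a lipocalin that binds bacterial iron carriers, fell from 10645 ± 525 to 832 ± 72 FPKM (log2 change −3.68), and *Cst11*, a cystatin protease inhibitor, from 11083 ± 928 to 1873 ± 224 FPKM (log2 change −2.57). The membrane metalloprotease-like genes *Adam7* (from 4845 ± 344 to 20.7 ± 0.583 FPKM, log2 change −7.87 ± 0.05, adjusted p = 5.1e-24) and *Adam28* (from 1358 ± 119 to 4.63 ± 0.55 FPKM, log2 change −8.17 ± 0.09, adjusted p = 1.3e-20) and the Ly6 family gene *Lypd8* (from 4648 ± 234 to 12.4 ± 0.647 FPKM, log2 change −8.54 ± 0.09, adjusted p = 6.9e-21) were among the 5 falls with the smallest adjusted p, and each kept a low level.

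Genes with large falls lay next to each other more often than tested genes in general did, and so did genes with large rises. Of 260 genes with a position that rose at least 10-fold, 32 (12.3%) had another such gene next to them. Of all tested genes with a position, 2.96% lay next to a gene that rose so. Of 593 genes with a position that fell at least 10-fold, 133 (22.4%) had another such gene next to them among tested genes, while 6.55% of all tested genes with a position had one. The longest run, on chromosome 2 from 25624665 to 25768098 (GRCm38), held 9 genes, among them *Lcn8*, *Lcn5*, *Lcn6*, *Lcn10*, *Lcn3*, *Obp2a* and *Obp2b* of the lipocalin family, with a summed mean of 24222 FPKM in sham and 164 FPKM after bilateral OD. On chromosome 14 from 62977524 to 63037846, *Defb48*, *Defb47*, *Defb43* and *Defb30* summed to 20086 FPKM in sham and 14.3 FPKM after bilateral OD. On chromosome 1 from 153849542 to 153893060, *Teddm2*, *Teddm1b* and *Teddm1a* summed to 5568 and 0.164 FPKM. The members of these runs are related copies, and how the authors' counting shared reads between copies is not stated. Runs were chosen after the values were seen.

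Promoters of *Lcn9* and *Lcn10* are shown as those of lipocalin genes that were nearly silent after bilateral OD and held the motif marked below. Such a match was found for 5 lipocalin genes and not for *Lcn8*, which was also nearly lost. The windows are the 250 bases before the start site in RefSeq on GRCm38.p6, where 12902 of the 17302 genes tested had 16195 windows. Capitals mark AGAACA, read on both strands, which is 1 side of the androgen response element, the DNA sequence through which androgens act on genes. For *Lcn9* (chr2:25822903-25823152, plus strand) the match lay 39 bases before the start site, and for *Lcn10* (chr2:25682476-25682725, plus strand) 157 bases before it.
Lcn9: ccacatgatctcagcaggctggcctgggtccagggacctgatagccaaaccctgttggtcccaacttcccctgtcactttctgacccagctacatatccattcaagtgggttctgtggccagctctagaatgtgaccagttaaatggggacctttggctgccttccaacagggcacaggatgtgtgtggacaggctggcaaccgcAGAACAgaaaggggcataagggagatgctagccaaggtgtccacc
Lcn10: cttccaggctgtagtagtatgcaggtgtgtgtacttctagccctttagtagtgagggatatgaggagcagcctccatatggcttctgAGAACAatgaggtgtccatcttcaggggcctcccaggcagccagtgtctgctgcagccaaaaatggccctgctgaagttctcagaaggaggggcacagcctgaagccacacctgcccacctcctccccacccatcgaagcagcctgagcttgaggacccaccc
AGAACA was in 11.9% of all windows, in 18.5% of the 493 windows of genes that fell at least 10-fold and in 14.6% of the 213 windows of genes that rose at least 10-fold. Among the β-defensins it was in 12 of 26 windows (46.2%) and among the lipocalins in 5 of 15 (33.3%). The full element, searched as GNACA and TGTNC with 3 bases of any kind between them, had a match in 0 of these 26 and 0 of these 15 windows, in 1.22% of the windows of genes that fell at least 10-fold and in 0.327% of all windows. A match is a description of the letters and not a binding site.

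Genes that rose to the top of the pool encoded secreted chaperones, inhibitors and ribosomal proteins. *Clu*, encoding the secreted chaperone clusterin, rose from 4302, 4382 and 7425 FPKM to 18349.6, 14577 and 13861 (log2 change 1.58 ± 0.17, adjusted p = 6.3e-07) and became the most abundant transcript measured. The sham values were uneven, with replicate 3 highest, yet all lay below the bilateral OD values. *AY761185*, an abundant transcript with no named product, rose from 67.2, 54.3 and 327 FPKM to 8562, 7014 and 6870.4 (log2 change 6.13 ± 0.50, adjusted p = 1.9e-07), and the log2 change was 6.94 without sham replicate 3. *Spink8*, a Kazal-type protease inhibitor gene, rose from 1147, 1038 and 2015 FPKM to 8244, 6936 and 6765 (log2 change 2.44 ± 0.18, adjusted p = 1.5e-08), and *Cst3*, encoding the widely made inhibitor cystatin C, from 1386, 1250.1 and 1274 FPKM to 4982, 4236 and 4201 (log2 change 1.78 ± 0.06, adjusted p = 1.3e-13). *Apoe*, encoding the lipid carrier apolipoprotein E, rose from 1734 ± 54.1 to 3102 ± 303 FPKM (log2 change 0.83). The remaining 5 of the 10 largest rises in FPKM were the ribosomal protein genes *Rps27rt*, *Rps28*, *Rps29*, *Rps21* and *Rpl7*, with log2 changes of 0.53 to 0.92.

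By fold, the largest rises were of genes at or near 0 in sham tissue. *Kif12*, encoding a kinesin motor, went from 0.176, 0 and 0.0383 FPKM to 43.3, 30.7 and 32.1 (log2 change 7.81 ± 0.47, adjusted p = 1.7e-10) and *Cpn1*, encoding the catalytic subunit of the plasma enzyme carboxypeptidase N, from 0.453, 0.0539 and 0.247 FPKM to 80.5, 64.7 and 62.4 (log2 change 7.8 ± 0.44, adjusted p = 2.1e-10). *Gc*, encoding the vitamin D-binding protein of plasma, rose from 4.3, 3.46 and 14.4 FPKM to 379, 296 and 289 (log2 change 5.71 ± 0.39, adjusted p = 2.3e-08), with a log2 change of 6.33 without sham replicate 3. Peptide hormone and neuroendocrine genes were among them. *Iapp*, encoding the pancreatic islet peptide amylin, rose from 5.66, 3.3 and 5.24 FPKM to 220.4, 219 and 252 (log2 change 5.61 ± 0.32, adjusted p = 7.2e-10), *Stc1*, encoding the secreted calcium regulator stanniocalcin-1, from 1.27, 1.04 and 2.46 to 74.6, 74.8 and 72.5 (log2 change 5.54), and *Scg5*, encoding a chaperone of prohormone convertase 2, from 1.84, 3.68 and 3.97 to 117, 106 and 105 (log2 change 5.14). In none of these genes did the groups overlap.

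The rest of the 12 largest rises were *Rasl11a*, a small Ras-like GTPase gene with 7.5, 6.21 and 6.19 FPKM in sham and 239, 208 and 212 after bilateral OD (log2 change 5.03 ± 0.11, adjusted p = 1.9e-16), *Ccdc148*, *Lrrtm1*, *1700011H14Rik* and *Mir760*. *Mir760* was at 0 in each sham library and at 43.9, 33.9 and 13.6 FPKM after bilateral OD, but this microRNA gene is short and its FPKM is a poor measure of level. *Gabrp*, encoding the π subunit of the GABA type A receptor, was at 0 in each sham library and at 11.8, 10.9 and 11.5 FPKM after bilateral OD (adjusted p = 8.7e-14). The other genes at 0 in sham with the highest means, *Mir6946*, *Mir5710* and *Mir5098*, were above 0 in 1 bilateral OD library each. Rises with the smallest adjusted p besides *Rasl11a* were those of *Efnb2*, encoding the Eph receptor ligand ephrin-B2 (from 10.6 ± 0.185 to 66.9 ± 2.39 FPKM, log2 change 2.65 ± 0.06, adjusted p = 4.4e-16), *Gm2a*, encoding the lysosomal GM2 ganglioside activator (from 34.3 ± 3.44 to 300.4 ± 38.5 FPKM, log2 change 3.12 ± 0.08, adjusted p = 9.3e-16), *Cldn8*, a tight junction claudin gene (from 30.1 ± 0.954 to 162 ± 4.36 FPKM, log2 change 2.42 ± 0.07, adjusted p = 3.4e-15), and *Uhrf2*, a ubiquitin ligase gene (from 14.5 ± 0.556 to 66.6 ± 3.59 FPKM, log2 change 2.19 ± 0.06, adjusted p = 4.9e-15).

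Most secretory families had more members lower than higher, while serpins and the RNase A family were near the background. The lysozyme family had 0 lower and 2 higher of 6. Of 39 β-defensin genes tested, 21 were lower, 14 of them at least 10-fold, and 6 were higher, against 31.4% lower and 30.4% higher over all genes. Their median log2 change was −1.31, beside 0.02 over all genes tested. Of 14 lipocalin genes 11 were lower, 10 of them at least 10-fold, and 1 was higher (median −4.49). *Lcn5* went from 1507, 1612 and 5708 FPKM to 144, 112 and 92.2 (log2 change −4.4 ± 0.41, adjusted p = 6.5e-07), and the log2 change was −3.77 without sham replicate 3. The cystatins numbered 8 lower and 2 higher of 12, and beside the rise of *Cst3*, *9230104L09Rik* fell from 11730.1 ± 611 to 3604 ± 223 FPKM (log2 change −1.7) and *Cst12* from 6889 ± 654 to 2232 ± 131 FPKM (log2 change −1.62).

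Protease inhibitors of the WAP and Kazal types showed the clearest split within a family. Of 26 tested, 18 were lower, 8 at least 10-fold, and 4 were higher. *Eppin*, encoding a sperm-coating inhibitor, fell from 553 ± 18.7 to 12 ± 2.34 FPKM (log2 change −5.54), *Wfdc10* from 3841 ± 289.7 to 1007 ± 185 FPKM (log2 change −1.94) and *Spink11* from 646 ± 317 to 130.2 ± 23 FPKM (log2 change −2.22), while *Spink8* rose. The family's share of summed FPKM was 1.06 ± 0.188% in sham and 1.70 ± 0.135% after bilateral OD with *Spink8*, and 0.891 ± 0.126% and 0.357 ± 0.0363% without it (exact two-sided permutation test, p = 0.1 for each). Of 27 serpins, inhibitors of serine proteases, 10 were lower and 6 higher, a balance that was 7 and 9 under the scaling without the highest genes and 7 and 7 without bilateral OD replicate 1, against 31.4% and 30.4% over all genes. *Serpinf2*, encoding α2-antiplasmin, fell from 147 ± 1.68 to 0.174 ± 0.139 FPKM (log2 change −9.19 ± 0.24, adjusted p = 1.1e-13) and *Serpinb9*, encoding a granzyme B inhibitor, rose from 16.2 ± 0.642 to 52.3 ± 1.07 FPKM (log2 change 1.69 ± 0.05, adjusted p = 2.4e-14).

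Proteases and sperm-surface families had members in both directions. Of 21 ADAM genes 12 were lower and 2 higher (rescaled, 11 and 4), with *Adam10*, a ubiquitous sheddase gene, falling only from 73.2 ± 1.94 to 44.2 ± 0.943 FPKM (log2 change −0.73). Of 23 Ly6 and Pate genes 11 were lower and 5 higher (rescaled, 8 and 6). *Ly6g5b* fell from 2728 ± 139.5 to 1.36 ± 0.393 FPKM (log2 change −10.9) and *Ly6e* rose from 414 ± 0.412 to 622 ± 32.6 FPKM (log2 change 0.59). The RNase A family had 4 lower and 3 higher of 14, and 4 and 4 under the scaling without the highest genes, 5 and 5 without bilateral OD replicate 1, shares near the background. *Rnase12* fell from 516 ± 37.1 to 123 ± 22 FPKM (log2 change −2.08) and *Rnase13* from 205 ± 163 to 6.6 ± 3.85 FPKM (log2 change −4.79, and −4.19 without sham replicate 3). Of 7 CRISP family genes, encoding cysteine-rich sperm-binding proteins, 3 were lower and 1 was higher, and 2 and 2 under that scaling or without bilateral OD replicate 1. *Crisp4* fell from 238 ± 6.42 to 0.891 ± 0.264 FPKM (log2 change −7.95 ± 0.15, adjusted p = 1.9e-16), while *Crisp1* was at 989, 1018 and 946 FPKM in sham and 673, 1079 and 954 after bilateral OD, overlapping ranges that were not called (adjusted p = 0.77). The glutathione peroxidases had 5 lower and 1 higher of 7 (rescaled, 5 and 2). *Gpx4*, which protects membranes and sperm chromatin, fell from 324 ± 23.9 to 212 ± 14.3 FPKM (log2 change −0.61) and *Gpx3*, the plasma form, rose from 138 ± 16.8 to 251 ± 18.3 FPKM (log2 change 0.87). Of the 9 Teddm and flavin monooxygenase genes 5 were lower and 1 was higher (rescaled, 4 and 2), and of the 6 lysozyme family genes *Lyz1* and *Lyz2*, made by phagocytes, rose. That higher share of 33.3% was near the 30.4% over all genes, and the median log2 change of the lysozyme family was −0.10.

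**Figure D4:**
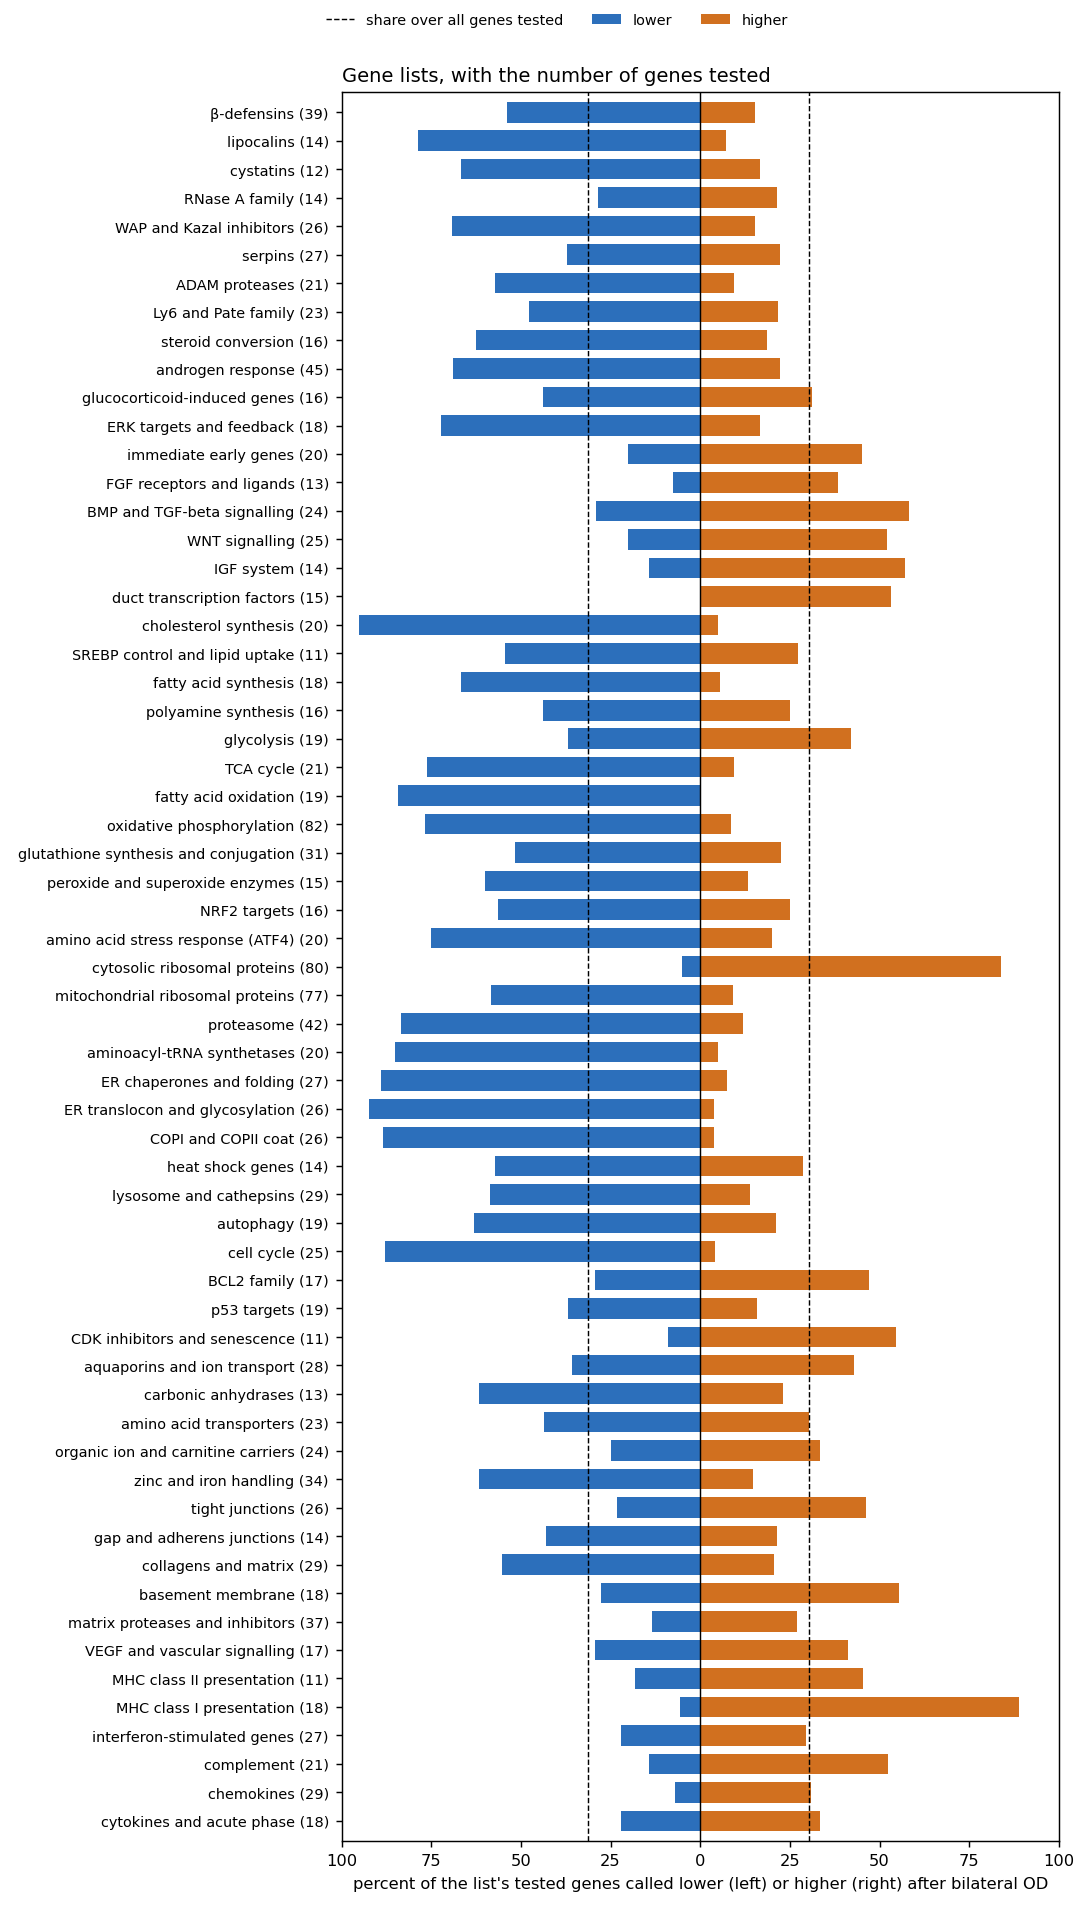
Percent of the tested genes of each list that were called lower (left bars) or higher (right bars) after bilateral OD, for lists with at least 10 genes tested, given in brackets. Dashed lines mark the shares over all 17302 genes, 31.4% lower and 30.4% higher, and the bars reach furthest to the left for cholesterol synthesis and the secretory pathway and furthest to the right for cytosolic ribosomal proteins and MHC class I presentation.

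Steroid receptor genes mostly rose, while genes of steroid conversion and of the androgen response mostly fell. The estrogen receptor gene *Esr1* rose from 9.26, 11.1 and 11 FPKM to 21.4, 20.4 and 19.99 (log2 change 0.98 ± 0.08, adjusted p = 1.4e-08) and the glucocorticoid receptor gene *Nr3c1* from 7.59 ± 0.707 to 12.6 ± 1.73 FPKM (log2 change 0.72). *Gper1*, encoding the membrane estrogen receptor, fell from 10.4 ± 0.829 to 3.43 ± 0.752 FPKM (log2 change −1.59), and of the 7 steroid receptor genes 5 were higher and 2 lower. *Srd5a2*, encoding the 5α-reductase that makes dihydrotestosterone in the epididymis, fell from 150.4, 167 and 176 FPKM to 64.3, 77 and 82 (log2 change −1.15 ± 0.09, adjusted p = 9.3e-09), and *Srd5a1*, encoding the other 5α-reductase, from 15.7, 15.9 and 13.8 FPKM to 4.15, 4.17 and 4.57 (log2 change −1.79 ± 0.11, adjusted p = 2.7e-10). Of 16 steroid conversion genes 10 were lower and 3 higher (rescaled, 8 and 4). Of 45 genes of the androgen response, a list drawn from genes known to be androgen-induced in other tissues, 31 were lower and 10 higher (median −0.53), and 22 and 13 under the scaling without the highest genes. *Fkbp5*, encoding a co-chaperone of steroid receptors and a classic androgen-induced gene, fell from 182, 181 and 192 FPKM to 29.8, 27.8 and 27.7 (log2 change −2.7 ± 0.05, adjusted p = 2.7e-17). *Dbi*, encoding the acyl-CoA binding protein, fell from 709.5 ± 63.5 to 184 ± 10.2 FPKM (log2 change −1.94) and *Tsc22d1* rose from 135 ± 17.5 to 206 ± 10.9 FPKM (log2 change 0.62). Of its members, 9 are also in the lists of lipid synthesis and its control described below. Of 16 glucocorticoid-induced genes 7 were lower and 5 higher, and under the scaling without the highest genes 5 and 7. The metallothionein genes *Mt1* and *Mt2* fell (log2 changes −0.91 and −0.98) and *Tsc22d3*, encoding the leucine zipper protein GILZ, rose from 31 ± 1.97 to 50.9 ± 3.3 FPKM (log2 change 0.72).

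Targets and feedback genes of the ERK kinases, which act below receptor tyrosine kinases, mostly fell. *Etv5*, encoding an ETS transcription factor of this pathway, went from 206, 229.6 and 191 FPKM to 3.31, 3.61 and 4.1 (log2 change −5.79 ± 0.09, adjusted p = 8.4e-19), and its relative *Etv4*, chosen after its values were seen, from 55.5, 59.9 and 43.1 FPKM to 0.951, 0.962 and 0.762. *Dusp6*, encoding the phosphatase that inactivates ERK, fell from 82.6, 82.7 and 69.97 FPKM to 6.29, 8.64 and 9.18 (log2 change −3.29 ± 0.12, adjusted p = 2.1e-13) and *Ccnd1*, encoding cyclin D1, from 72.9, 74.3 and 67.5 FPKM to 8.75, 13.9 and 12.3 (log2 change −2.63 ± 0.12, adjusted p = 5.8e-12). Of 18 genes of the list 13 were lower, 4 at least 10-fold, and 3 were higher (median −1.22). The 20 immediate early genes, 4 of which are in both lists, had 4 lower and 9 higher. *Egr2* fell from 160.0 ± 9.94 to 62 ± 10.3 FPKM (log2 change −1.38), while *Fosl2* rose from 4.3 ± 0.916 to 15.8 ± 0.343 FPKM (log2 change 1.88), *Jun* from 23.3 ± 0.488 to 49.8 ± 4.3 FPKM (log2 change 1.09) and *Junb* from 35.5 ± 1.31 to 64 ± 10.2 FPKM (log2 change 0.84).

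Ligands, receptors and targets of other growth factor pathways were more often higher than lower. Of 13 fibroblast growth factor genes 5 were higher and 1 was lower (rescaled, 0 and 10), and 9 were higher without bilateral OD replicate 1. The receptor gene *Fgfr2* rose from 9.09 ± 0.839 to 32 ± 5.54 FPKM (log2 change 1.79 ± 0.10, adjusted p = 4.3e-11) and the ligand gene *Fgf1* from 7.53 ± 0.0251 to 15.4 ± 0.168 FPKM (log2 change 1.02). Of 24 BMP and TGF-β genes 14 were higher and 7 lower. *Id2*, a BMP target that blocks differentiation factors, rose from 34.9, 31.1 and 34.5 FPKM to 114, 115 and 116 (log2 change 1.78 ± 0.06, adjusted p = 6.5e-14), the BMP receptor gene *Bmpr1a* rose from 23.3 ± 1.09 to 38.1 ± 3.36 FPKM (log2 change 0.70) and the ligand gene *Tgfb1* fell from 63.8 ± 3.53 to 25.9 ± 2.78 FPKM (log2 change −1.3). Of 25 WNT genes 13 were higher and 5 lower (rescaled, 3 and 16). *Axin2*, a feedback target of β-catenin, rose from 14.1 ± 1.56 to 35.6 ± 0.613 FPKM (log2 change 1.34), *Dkk3* from 5.27 ± 0.106 to 33.6 ± 2.85 FPKM (log2 change 2.64 ± 0.09, adjusted p = 3.9e-14), and the WNT-responsive transcription factor gene *Tcf7* fell from 31.8 ± 9.19 to 18.5 ± 1.42 FPKM (log2 change −0.74). In the insulin-like growth factor system 8 of 14 genes were higher and 2 lower. The receptor gene *Igf1r* fell from 21.7 ± 1.38 to 8.38 ± 0.531 FPKM (log2 change −1.36), and the binding protein genes *Igfbp7* and *Igfbp3* rose (log2 changes 0.58 and 1.8). *Igfbp3* is one of the genes low in bilateral OD replicate 1, where it stood at 20.2 FPKM against 64.8 and 56.4 in the others.

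Of 15 transcription factor genes of the Wolffian duct, the embryonic origin of the epididymis, 8 were higher and 0 were lower by limma, with 0 lower at an unadjusted p under 0.05. *Emx2* rose from 41.6 ± 0.972 to 89.3 ± 4.07 FPKM (log2 change 1.1 ± 0.06, adjusted p = 2.5e-11) and *Pax8* from 90.7 ± 4.41 to 119.9 ± 6.07 FPKM (log2 change 0.40). *Hoxd9* was at 49.7 ± 2.86 FPKM in sham and 55.7 ± 8.95 FPKM after bilateral OD and was not called. The median log2 change of the list was 0.66.

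Most genes of cholesterol synthesis fell. Of 20 genes of cholesterol synthesis 19 were lower and 1 was higher (median −1.86), and the summed FPKM of the pathway was 1269 to 1299 in sham and 336 to 373 after bilateral OD. *Nsdhl*, encoding a sterol dehydrogenase, fell from 184, 179.5 and 187 FPKM to 17.9, 16.6 and 17.3 (log2 change −3.4 ± 0.06, adjusted p = 6.9e-18), *Fdps*, encoding farnesyl diphosphate synthase, from 215 ± 7.96 to 52.4 ± 4.98 FPKM (log2 change −2.04), *Msmo1* from 126 ± 7.07 to 28.7 ± 1.87 FPKM (log2 change −2.13) and *Hmgcs1*, encoding the enzyme that makes HMG-CoA, from 82.7 ± 4.24 to 45.3 ± 1.52 FPKM (log2 change −0.87). Among regulators, *Insig1*, the sterol-sensing anchor, fell from 106 ± 1.04 to 23.9 ± 0.909 FPKM (log2 change −2.14), and the sterol-responsive transcription factor genes *Srebf1* (log2 change −1.03) and *Srebf2* (log2 change −0.66) fell too. Of 11 genes of SREBP control and lipid uptake 6 were lower and 3 higher. Of 18 fatty acid synthesis genes 12 were lower and 1 was higher, and 8 and 5 under the scaling without the highest genes. *Acly*, encoding the citrate lyase that supplies acetyl-CoA, fell from 364 ± 34.1 to 80.4 ± 7.6 FPKM (log2 change −2.18), and the desaturase genes *Scd1* (from 126 ± 10.1 to 16 ± 0.194 FPKM, log2 change −2.97), *Scd2* (log2 change −1.94) and *Fads2* (log2 change −2.0) fell with it. The 9 cholesterol efflux genes were divided, with 3 lower, such as *Abca2* (from 72.3 ± 12.4 to 28.2 ± 3.45 FPKM, log2 change −1.35), and 4 higher, led by *Apoe*.

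The promoter of *Hmgcs1* is shown as that of a cholesterol synthesis gene that fell. Among the 18 windows of that list it was the 1 that held TCACCCCAC, the sterol response element read on both strands. It lies at chr13:119690101-119690350, plus strand, and the match, in capitals, ended 128 bases before the start site.
Hmgcs1: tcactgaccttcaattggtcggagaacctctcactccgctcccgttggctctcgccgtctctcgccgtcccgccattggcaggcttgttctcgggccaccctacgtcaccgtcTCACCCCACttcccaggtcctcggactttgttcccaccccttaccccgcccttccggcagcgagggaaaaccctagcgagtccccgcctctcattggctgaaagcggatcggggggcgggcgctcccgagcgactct
The element was in 0.537% of all 16195 windows.

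Most genes of mitochondrial energy metabolism were lower, by a margin that depended on scaling. Of 82 oxidative phosphorylation genes 63 were lower and 7 higher, with a median of −0.42, and under the scaling without the highest genes 32 were lower and 19 higher. *Cycs*, encoding cytochrome c, fell from 59.2 ± 4.7 to 19.5 ± 0.275 FPKM (log2 change −1.59 ± 0.06, adjusted p = 1.3e-13) and *Atp5l*, an ATP synthase subunit gene, from 545 ± 47.4 to 365 ± 10.2 FPKM (log2 change −0.58), while *Cox6c*, a cytochrome oxidase subunit gene, rose from 725 ± 90.6 to 947 ± 56.3 FPKM (log2 change 0.39). Of 21 TCA cycle genes 16 were lower and 2 higher, a balance that turned to 6 and 7 under that scaling. *Mdh2*, encoding malate dehydrogenase, fell from 207 ± 3.23 to 138 ± 5.71 FPKM (log2 change −0.58) and *Suclg2*, a succinyl-CoA ligase subunit gene, rose from 8.79 ± 0.386 to 22.7 ± 1.73 FPKM (log2 change 1.35). Of 19 fatty acid oxidation genes 16 were lower and 0 higher, against 9 and 2 under that scaling, and 0 were higher at an unadjusted p under 0.05 by limma. *Acaa2*, encoding a mitochondrial thiolase, fell from 119 ± 6.54 to 81.4 ± 4.46 FPKM (log2 change −0.55 ± 0.06, adjusted p = 2.2e-07). The 19 glycolysis genes were mixed, with 7 lower and 8 higher, and 3 and 13 under that scaling. *Hk2*, encoding an inducible hexokinase, fell from 30.1 ± 3.45 to 5.2 ± 0.549 FPKM (log2 change −2.51 ± 0.10, adjusted p = 3.0e-13), *Gapdh* from 379.8 ± 31.1 to 289 ± 9.06 FPKM (log2 change −0.39), and *Ldhb*, encoding the lactate dehydrogenase of oxidative tissues, rose from 195 ± 18.6 to 301 ± 28 FPKM (log2 change 0.62).

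Detoxification genes went in both directions. Of 31 genes of glutathione synthesis and conjugation 16 were lower and 7 higher, and under the scaling without the highest genes 10 and 11. The glutathione transferase genes *Gstm2* (from 895 ± 47.8 to 449 ± 44.9 FPKM, log2 change −1.0) and *Gstm7* (from 488 ± 75.8 to 92.6 ± 16.8 FPKM, log2 change −2.4) fell, while *Gstm1* (from 225 ± 16.7 to 318 ± 24.9 FPKM, log2 change 0.50) and *Gsta3* (from 35.5 ± 1.91 to 163 ± 11 FPKM, log2 change 2.19) rose. Of 16 targets of the oxidative stress factor NRF2 9 were lower and 4 higher (rescaled, 7 and 6), among them *Ephx1*, encoding microsomal epoxide hydrolase, which rose from 34.7 ± 3.79 to 148 ± 7.01 FPKM (log2 change 2.1 ± 0.08, adjusted p = 1.6e-13). The peroxiredoxin genes *Prdx1* (log2 change −0.97) and *Prdx6* (from 397 ± 5.52 to 134 ± 9.51 FPKM, log2 change −1.57) fell, and *Sod1*, encoding cytosolic superoxide dismutase, was at 717 ± 42.5 FPKM in sham and 749 ± 46.2 FPKM after bilateral OD and was not called. Of 15 peroxide and superoxide enzyme genes 9 were lower and 2 higher, and 5 and 7 under that scaling. Of 20 genes of the amino acid stress response 15 were lower, *Atf4* itself among them (from 186 ± 6.83 to 111 ± 9.03 FPKM, log2 change −0.74), and 4 were higher.

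The apparatus that makes, folds and exports secreted proteins fell nearly throughout. Of 27 endoplasmic reticulum (ER) chaperone and folding genes 24 were lower and 2 higher (median −0.82), and their summed FPKM was 9133 to 9744 in sham and 4514 to 5323 after bilateral OD. *Calr*, encoding calreticulin, fell from 1883, 1864 and 2019 FPKM to 792, 657 and 631 (log2 change −1.48 ± 0.07, adjusted p = 2.7e-12) and *Hspa5*, encoding the chaperone BiP, from 1096, 1076 and 1129.7 FPKM to 546, 477 and 451 (log2 change −1.17 ± 0.06, adjusted p = 1.4e-11). *Hsp90b1*, encoding the ER form of HSP90, fell from 1069 ± 29.95 to 501 ± 44.6 FPKM (log2 change −1.1). Of 26 translocon and glycosylation genes 24 were lower and 1 was higher. *Ssr4* fell from 446 ± 29.7 to 161 ± 8.83 FPKM (log2 change −1.47) and *Spcs3*, a signal peptidase subunit gene, from 89.97 ± 1.78 to 29 ± 0.606 FPKM (log2 change −1.63 ± 0.05, adjusted p = 5.9e-15). Of 26 genes of the COPI and COPII vesicle coats 23 were lower and 1 was higher, *Tmed3*, a cargo receptor gene, falling from 377 ± 26.1 to 113 ± 5.25 FPKM (log2 change −1.74 ± 0.06, adjusted p = 5.3e-14). Under the scaling without the highest genes 21, 22 and 23 genes of these 3 lists were lower.

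The promoter of *Hspa5* is shown because this gene is a classic target of ER stress. The element, CCAAT and CCACG with 9 bases of any kind between them on either strand, is in capitals, and in the window at chr2:34771840-34772089, plus strand, the match ended 46 bases before the start site.
Hspa5: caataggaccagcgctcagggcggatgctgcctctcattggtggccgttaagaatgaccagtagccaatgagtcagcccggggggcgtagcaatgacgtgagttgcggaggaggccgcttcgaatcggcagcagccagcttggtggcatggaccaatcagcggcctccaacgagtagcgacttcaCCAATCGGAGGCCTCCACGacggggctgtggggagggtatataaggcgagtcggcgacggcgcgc
The element was in 9 of the 24 windows of the ER chaperone list (37.5%) and in 0.123% of all windows.

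Cytosolic ribosomal protein genes went the other way. Of 80 genes 67 were higher and 4 lower, with a median of 0.46, and 77 were higher under the scaling without the highest genes. *Rpl5* rose from 406, 369 and 429 FPKM to 769, 791 and 759.6 (log2 change 0.95 ± 0.06, adjusted p = 2.2e-10) and *Rplp1* from 3049, 2671 and 3350.1 FPKM to 4043, 3758 and 3692 (log2 change 0.35 ± 0.09, adjusted p = 0.0019). Ribosomal protein genes have many near-identical copies in the genome, so their FPKM depend on how reads shared by copies were counted, which is not stated. Mitochondrial ribosomal protein genes were lower in 45 and higher in 7 of 77, which turned to 18 and 23 under that scaling. *Mrpl37* stood out with a fall from 639.8, 519.8 and 529 FPKM to 27.9, 23.2 and 22 (log2 change −4.52 ± 0.09, adjusted p = 3.9e-17), and *Mrps6* fell from 427 ± 28.7 to 78.9 ± 3.93 FPKM (log2 change −2.43 ± 0.06, adjusted p = 2.7e-16). Of 20 aminoacyl-tRNA synthetase genes 17 were lower, with *Wars* falling from 337 ± 34.8 to 128 ± 6.85 FPKM (log2 change −1.39 ± 0.07, adjusted p = 6.8e-12), against 11 lower and 4 higher under that scaling.

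Most proteasome and lysosome genes were lower. Of 42 proteasome genes 35 were lower and 5 higher. *Psmb5*, a catalytic subunit gene, fell from 219 ± 10.3 to 85.1 ± 5.04 FPKM (log2 change −1.36 ± 0.07, adjusted p = 1.2e-11) and *Psma7* from 294 ± 18.5 to 186 ± 10.2 FPKM (log2 change −0.66). The genes that rose were *Psme1*, *Psme2*, *Psmb8*, *Psmb9* and *Psmb10*, encoding the interferon-inducible activator and catalytic subunits of the immunoproteasome, chosen after their values were seen save *Psme1*. *Psmb8*, for example, rose from 13.9, 14.4 and 13 FPKM to 34.5, 32.8 and 34.9 (log2 change 1.3 ± 0.10, adjusted p = 4.0e-09). Of 29 lysosome genes 17 were lower and 4 higher (rescaled, 14 and 9), *Cd63* falling from 957 ± 77.7 to 386 ± 3.48 FPKM (log2 change −1.31) and *Psap*, encoding prosaposin, rising from 557 ± 29.3 to 675 ± 6.62 FPKM (log2 change 0.28). Of 19 autophagy genes 12 were lower and 4 higher, and 5 and 8 under the scaling without the highest genes. Of 14 heat shock genes 8 were lower and 4 higher (rescaled, 7 and 6). *Bag3*, encoding a co-chaperone of HSP70, fell from 67.9 ± 1.92 to 22.7 ± 1.04 FPKM (log2 change −1.58 ± 0.05, adjusted p = 6.0e-14).

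Cell cycle transcripts fell. Of 25 genes 22 were lower, 7 of them at least 10-fold, and 1 was higher (median −2.03). *Top2a*, encoding the topoisomerase of dividing cells, fell from 2.96, 3.54 and 3.39 FPKM to 0.14, 0.108 and 0.169 (log2 change −3.83 ± 0.15, adjusted p = 6.0e-13), while the replication clamp gene *Pcna* fell less, from 70.8 ± 2.62 to 48.7 ± 0.571 FPKM (log2 change −0.54). The exception was *Mcm7*, a replicative helicase subunit gene, which rose from 13 ± 1.47 to 20.02 ± 0.44 FPKM (log2 change 0.62). Of 11 cell cycle inhibitor and senescence genes 6 were higher and 1 was lower (rescaled, 0 and 9). *Cdkn1b*, encoding p27, rose from 20.1 ± 2.96 to 32.5 ± 0.549 FPKM (log2 change 0.70) and *Cdkn1c*, encoding p57, from 3.62 ± 0.374 to 8.28 ± 1.55 FPKM (log2 change 1.16). Of 17 BCL2 family genes 8 were higher and 5 lower. The survival gene *Bcl2* rose from 4.48, 4.83 and 4.25 FPKM to 17.5, 17.9 and 18 (log2 change 1.96 ± 0.09, adjusted p = 2.7e-12), while the death effector gene *Bax* (from 68.3 ± 2.95 to 41.5 ± 2.24 FPKM, log2 change −0.72) and the survival gene *Mcl1* (from 45.1 ± 1.33 to 31.9 ± 0.412 FPKM, log2 change −0.50) fell. Of 19 p53 targets 7 were lower and 3 higher, and 4 and 8 under the scaling without the highest genes. Of 16 polyamine genes 7 were lower and 4 higher, and 5 and 7 under it.

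Transporters and junctions changed gene by gene. *Slc38a5*, a glutamine transporter gene, fell from 2456, 2409.6 and 2966 FPKM to 45.3, 40.3 and 38.2 (log2 change −5.98 ± 0.08, adjusted p = 2.0e-19), and the amino acid transporter genes *Slc7a5* (from 607 ± 9.41 to 141 ± 14.2 FPKM, log2 change −2.11) and *Slc1a1* (from 346 ± 28.1 to 35.4 ± 1.7 FPKM, log2 change −3.28) also fell. Of the list's 23 genes 10 were lower and 7 higher. Among 24 organic ion carriers, with 6 lower and 8 higher, *Slco4c1* fell from 47.6 ± 6.76 to 1.94 ± 0.253 FPKM (log2 change −4.54 ± 0.16, adjusted p = 9.7e-14) and *Slco1a5* rose from 11.2 ± 1.01 to 59.2 ± 6.65 FPKM (log2 change 2.39 ± 0.09, adjusted p = 4.5e-13). Of 28 genes of ion and water transport 10 were lower and 12 higher. The potassium channel gene *Kcnq1* rose from 8.73 ± 1.27 to 61.3 ± 5.69 FPKM (log2 change 2.8 ± 0.09, adjusted p = 3.3e-14), the chloride channel gene *Ano1* from 39.7 ± 3.75 to 72.7 ± 1.77 FPKM (log2 change 0.87), and *Atp1b1*, a sodium pump subunit gene, fell from 152 ± 3.13 to 103 ± 3.84 FPKM (log2 change −0.56). Of 13 carbonic anhydrases 8 were lower and 3 higher (rescaled, 5 and 3), *Car7* falling from 21.5 ± 0.714 to 2.42 ± 0.488 FPKM (log2 change −3.12 ± 0.11, adjusted p = 1.5e-13). Of 34 zinc and iron genes 21 were lower and 5 higher (rescaled, 16 and 10).

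Claudins set the permeability of the barrier between blood and lumen. *Cldn2*, a channel-forming claudin gene, fell from 410.4, 430.1 and 419 FPKM to 80.7, 83.3 and 78.6 (log2 change −2.38 ± 0.04, adjusted p = 2.4e-17) and *Cldn3* from 209 ± 20.1 to 137 ± 17.5 FPKM (log2 change −0.61), while *Cldn8* rose. Of 26 tight junction genes 12 were higher and 6 lower (rescaled, 4 and 15). *Cdh16*, encoding a cadherin of kidney and duct epithelium, rose from 96.1, 93.7 and 114 FPKM to 447, 411 and 397 (log2 change 2.05 ± 0.07, adjusted p = 3.3e-14), and *Gja1*, encoding a widespread connexin, fell from 278 ± 12.6 to 209 ± 0.869 FPKM (log2 change −0.41). Of 14 gap and adherens junction genes 6 were lower and 3 higher, which turned to 2 and 7 under the scaling without the highest genes.

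Genes of muscle, matrix and vessels were changed as well, and several of these values differed between bilateral OD libraries. *Actg2*, the smooth muscle γ-actin gene, fell from 1837, 1777 and 1537 FPKM to 16.3, 11.1 and 13.9 (log2 change −6.97 ± 0.13, adjusted p = 1.1e-16), while a pair of other contractile genes were not called. *Acta2*, the α-actin gene, was at 146 ± 23.9 FPKM in sham and 133 ± 21.5 FPKM after bilateral OD and *Tagln*, encoding transgelin, at 79.3 ± 13.4 FPKM in sham and 84.6 ± 12.6 FPKM after bilateral OD, with overlapping ranges (adjusted p = 0.42 and 0.54). Of 10 smooth muscle markers 3 were lower and 1 was higher, and under the scaling without the highest genes 2 and 5. Of 29 collagen and matrix genes 16 were lower and 6 higher (median −0.51), 10 and 7 under that scaling, and without bilateral OD replicate 1 13 and 6 (median −0.27). *Sparc*, encoding a collagen-binding matrix protein, fell from 181 ± 27.3 to 46.2 ± 11.3 FPKM (log2 change −1.99 ± 0.14, adjusted p = 2.7e-09) and *Col15a1* rose from 3.19 ± 0.462 to 15.7 ± 1.65 FPKM (log2 change 2.27 ± 0.12, adjusted p = 2.3e-11). *Dcn* was at 199, 147 and 147 FPKM in sham and 188, 749 and 736 after bilateral OD, so the groups overlapped through replicate 1, although the gene was called (log2 change 1.53 ± 0.39, adjusted p = 0.0037, and log2 change 2.19 without that replicate). Of 18 basement membrane genes 10 were higher, such as the perlecan gene *Hspg2* (from 2.81 ± 0.289 to 7.55 ± 0.676 FPKM, log2 change 1.4), and 5 were lower. *Mmp7*, encoding the epithelial protease matrilysin, fell from 81.1, 81.4 and 88.1 FPKM to 1.55, 2.24 and 1.44 (log2 change −5.53 ± 0.22, adjusted p = 1.3e-11). Of 37 matrix proteases and inhibitors 5 were lower (13.5%), 10 were higher (27.0%) and 22 were not called. Both shares were below the 31.4% and 30.4% over all genes.

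Among vascular genes, the growth factor gene *Vegfa* fell from 45.9, 49.8 and 34.5 FPKM to 2.96, 3.27 and 2.74 (log2 change −3.8 ± 0.15, adjusted p = 9.7e-13), while *Vegfb* rose from 15.4 ± 0.363 to 30.03 ± 1.61 FPKM (log2 change 0.96) and *Nrp1*, encoding a VEGF co-receptor, from 7.01 ± 0.984 to 17.5 ± 1.44 FPKM (log2 change 1.31). Of 17 genes of vascular signalling 5 were lower and 7 higher (rescaled, 4 and 9). *Plvap*, encoding the diaphragm protein of fenestrated capillaries, fell from 35.7, 36.3 and 31.1 FPKM to 3.98, 4.38 and 4.55 (log2 change −2.97 ± 0.13, adjusted p = 1.3e-12), and *Cldn5*, the endothelial claudin gene, rose from 6.85 ± 0.74 to 15.7 ± 2.43 FPKM (log2 change 1.18). Over the 9 endothelial markers 3 were lower and 3 higher, and their summed FPKM was 106 to 123 in sham and 63.2 to 73.3 after bilateral OD.

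Genes of MHC class I presentation were mostly higher, and complement genes were more often higher than lower. Of 18 genes of MHC class I presentation, which shows cytosolic peptides to T cells, 16 were higher and 1 was lower. Their summed FPKM differed little, at 2370 ± 92.6 in sham and 2405 ± 131 after bilateral OD. The list is not independent of the proteasome genes above, as *Psme1* is in both. *H2-D1* rose from 192 ± 11.3 to 289.9 ± 18.4 FPKM (log2 change 0.59 ± 0.07, adjusted p = 7.4e-07) and *Psme1* from 77.6 ± 6.88 to 158 ± 11 FPKM (log2 change 1.02 ± 0.07, adjusted p = 5.5e-10), and the exception was *B2m*, encoding the light chain of all class I molecules, which fell from 1639 ± 52.3 to 1277 ± 71.4 FPKM (log2 change −0.36), although under the scaling without the highest genes it was not called (log2 change −0.05). Of 11 genes of MHC class II presentation 5 were higher and 2 lower, with *Cd74*, encoding the invariant chain, at 98.7, 79.1 and 72.1 FPKM in sham and 133, 186 and 209 after bilateral OD (log2 change 1.06 ± 0.15, adjusted p = 1.4e-05). *H2-DMb2*, encoding a chain of a peptide exchange factor, fell from 65.4 ± 6.2 to 5.84 ± 0.678 FPKM (log2 change −3.47 ± 0.43, adjusted p = 9.1e-06). Of 21 complement genes 11 were higher, 3 were lower and 7 were not called, and 8 to 13 were higher with 1 replicate left out. Of 29 chemokine genes 9 were higher, 2 were lower and 18 were not called. Their higher share of 31.0% was near the 30.4% over all genes, and their lower share was 6.9% beside 31.4%. *Cx3cl1*, encoding a membrane-bound chemokine, rose from 28.9 ± 1.93 to 68.6 ± 3.65 FPKM (log2 change 1.24 ± 0.06, adjusted p = 3.0e-12). Of 27 interferon-stimulated genes 8 were higher and 6 lower (rescaled, 3 and 10), shares near the background. Of 18 cytokine and acute phase genes 4 were lower and 6 higher, and *Il34*, encoding a growth factor for macrophages, fell from 28.7 ± 2.58 to 3.1 ± 0.632 FPKM (log2 change −3.19 ± 0.24, adjusted p = 1.0e-08).

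Markers of cell types other than principal cells were measured to describe what the tissue held. Markers of principal cells had 5 lower and 3 higher of 10, and 5 and 5 under the scaling without the highest genes. *Aqp9*, a water channel gene of their luminal membrane, fell from 54.9 ± 2.7 to 19.2 ± 0.777 FPKM (log2 change −1.51 ± 0.11, adjusted p = 3.6e-09), *Epcam* rose from 275 ± 6.87 to 344 ± 27.2 FPKM (log2 change 0.32) and *Krt18* was at 406 ± 20.7 FPKM in sham and 396 ± 39.1 FPKM after bilateral OD and was not called. Of 11 clear and narrow cell markers 7 were higher and 2 lower, with summed FPKM of 185 to 197 in sham and 370.2 to 455 after bilateral OD. *Foxi1*, encoding their defining transcription factor, rose from 34.9, 34.3 and 37.7 FPKM to 129, 93.6 and 97.9 (log2 change 1.57 ± 0.09, adjusted p = 1.2e-10), the proton pump subunit gene *Atp6v1g3* from 17.9 ± 0.532 to 74.4 ± 6.26 FPKM (log2 change 2.04), and the ammonia transporter gene *Rhbg* fell from 43.2 ± 4.6 to 11.5 ± 1.42 FPKM (log2 change −1.91). Of 8 basal cell markers 5 were lower and 1 was higher, 2 and 2 under that scaling, and 3 and 3 without bilateral OD replicate 1. *Trp63*, encoding p63, fell from 21.4 ± 2.66 to 14.2 ± 3.94 FPKM (log2 change −0.62) and *Krt5* was at 47.7 ± 2.87 FPKM in sham and 57.7 ± 19.8 FPKM after bilateral OD and was not called.

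**Figure D5:**
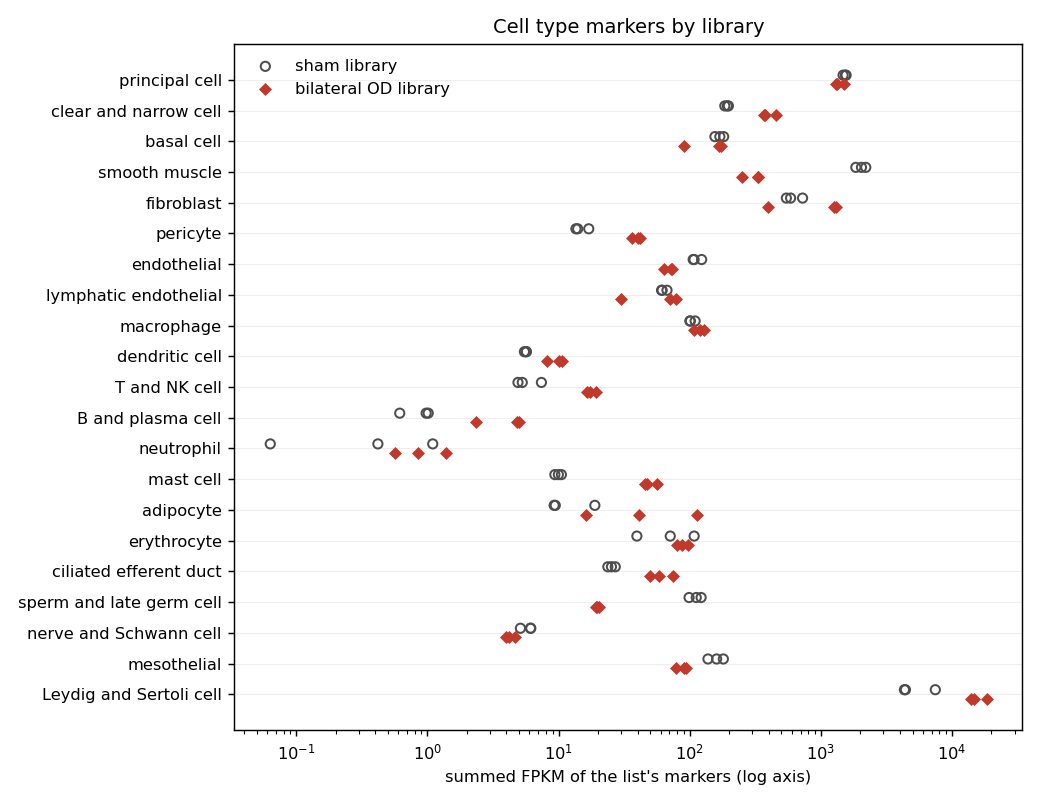
Summed FPKM of each list of cell type markers (log axis) in each of the 3 sham libraries (open circles) and the 3 bilateral OD libraries (diamonds). Sperm markers lie lower in all bilateral OD libraries, T and NK, mast and ciliated cell markers lie higher in all, and fibroblast and adipocyte markers are spread widely between bilateral OD libraries. The sum of Leydig and Sertoli cell markers is nearly all *Clu*, which the epididymal epithelium also expresses.

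Sperm transcripts fell after bilateral OD. *Prm1* and *Prm2* encode the protamines that pack sperm DNA. *Prm1* stood at 17.3, 22.9 and 23.3 FPKM in sham and at 0 in each bilateral OD library (adjusted p = 6.4e-12), and *Prm2* at 22.4, 25.9 and 22.2 FPKM in sham and 0, 0.264 and 0 after bilateral OD. *Odf1*, encoding a protein of the sperm tail, stood at 11.5, 10.5 and 13.5 FPKM in sham and at 0 in each bilateral OD library. Of 18 sperm and late germ cell markers 13 were lower, 11 at least 10-fold, and their summed FPKM was 98.9 to 122 in sham and 19.3 to 20.5 after bilateral OD. *Odf2*, which somatic centrosomes also use, fell from 15.9 ± 1.21 to 12.1 ± 0.316 FPKM (log2 change −0.38) and made up most of what was left. *Rhox5*, an androgen-dependent homeobox gene of Sertoli cells and epididymis, was at 3.76, 4.3 and 5.11 FPKM in sham and at 0 in each bilateral OD library.

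Leukocyte markers were low in both groups, and many were higher after bilateral OD. Of 11 T and NK cell markers 7 were higher and 0 lower, with summed FPKM of 4.9 to 7.4 in sham and 16.3 to 19.2 after bilateral OD, and *Cd3g* rose from 0.824 ± 0.46 to 3.26 ± 0.547 FPKM (log2 change 2.0 ± 0.46, adjusted p = 0.0012). At an unadjusted p under 0.05 by limma, 0 were lower. All 6 mast cell markers tested were higher, with sums of 9.37 to 10.5 and 45.7 to 55.9 FPKM, most of it *Kit*, which other cells of the tissue also express. Under the rule of the study's methods the count was 1 for mast cell markers, 1 for B and plasma cell markers and 2 for macrophage markers. The mast cell protease gene *Cma1* rose from 0.717 ± 0.378 to 4.83 ± 2.64 FPKM (log2 change 2.51 ± 0.42, adjusted p = 6.5e-05). Of 8 dendritic cell markers 6 were higher, as were 4 of 5 B and plasma cell markers and 4 of 11 macrophage markers, 2 without sham replicate 3. *Adgre1*, encoding the macrophage antigen F4/80, rose from 3.78 ± 0.211 to 5.73 ± 1.32 FPKM (log2 change 0.56 ± 0.16, adjusted p = 0.0048) and *Csf1r* was at 12.5 ± 0.978 FPKM in sham and 14.2 ± 2.77 FPKM after bilateral OD and was not called. The 5 erythrocyte markers had 0 calls by limma, and 0 at an unadjusted p under 0.05.

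Markers of tissue around the duct differed between libraries of one group. Of 12 markers of ciliated cells, which line the efferent ducts between testis and epididymis, 11 were higher, with sums of 23.8 to 27.1 FPKM in sham and 49.5 to 74.8 after bilateral OD. *Foxj1*, encoding the transcription factor of motile cilia, rose from 4.32, 4.87 and 4.88 FPKM to 15.9, 30.1 and 22.3 (log2 change 2.21 ± 0.46, adjusted p = 8.9e-04). Of 10 adipocyte markers 6 were higher, 3 in a fit of only the sham and bilateral OD libraries and 0 under the rule of the study's methods, and the summed FPKM were 114, 16.2 and 41 in the 3 bilateral OD libraries against 9.25 to 18.9 in sham. *Fabp4*, encoding a fatty acid carrier of adipocytes and capillaries, stood at 0.615, 5.47 and 0.178 FPKM in sham and 62.5, 7.26 and 20.9 after bilateral OD. Of 10 fibroblast markers 4 were lower and 2 higher, 3 and 3 under the scaling without the highest genes, and without bilateral OD replicate 1 4 and 6. Their sums were 546 to 726 FPKM in sham and 394, 1308 and 1268 in the 3 bilateral OD libraries. *Pdgfra*, encoding a growth factor receptor of fibroblasts, fell from 55.1, 59.8 and 51.8 FPKM to 5.81, 16.1 and 17.3 (log2 change −2.23 ± 0.30, adjusted p = 1.8e-05), below sham in each library. Of 6 pericyte markers 4 were higher, *Notch3* rising from 4.2 ± 0.526 to 29.9 ± 1.96 FPKM (log2 change 2.81 ± 0.08, adjusted p = 7.7e-15). Of the other marker lists, 2 of 5 lymphatic endothelial genes were higher (4 without bilateral OD replicate 1 and 0 without bilateral OD replicate 2 or sham replicate 2) and 1 lower, 1 of 4 neutrophil genes higher, 3 of 6 nerve genes higher and 1 lower, 3 of 5 mesothelial genes higher and 1 lower, and 2 of 10 genes of the Leydig and Sertoli cells of the testis higher and 4 lower. Their part in the changes of other lists was not tested.

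Removal of the testis on 1 side only, measured in the same fit, leaves the other testis to supply hormones to the blood and stops the luminal supply to the duct on that side. The change from the contralateral to the ipsilateral IS-caput of 3 mice was subtracted from the change after bilateral OD, and the difference was called in 3339 genes (19.3%) as lower and in 3125 (18.1%) as higher after bilateral OD. *Lcn9* changed by −16.56 on the log2 scale of FPKM plus 0.1 after bilateral OD and by −15.12 after unilateral OD, a difference that was called (−1.45 ± 0.37, adjusted p = 0.0073). It was at 0 in each bilateral OD library, so this difference depends on the 0.1 FPKM added. *Defb25* changed by −7.88 and −8.51, with a difference of 0.63 ± 0.33 that was not called (adjusted p = 0.15), and *Clu* by 1.58 and 1.14, with a difference of 0.44 ± 0.24 that was not called either (adjusted p = 0.17). A missed threshold does not show that these changes of *Defb25* and *Clu* are equal.

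The difference between operations was also called for other large falls. *Defb18* stood at 8735 ± 498 FPKM on the contralateral and 8194 ± 1137 on the ipsilateral side and *Gpx5* at 34378 ± 643 FPKM on the contralateral and 29223 ± 3661 on the ipsilateral side, with differences between operations of −16.82 ± 0.15 (adjusted p = 3.4e-21) and −5.45 ± 0.13 (adjusted p = 3.3e-15) on the log2 scale. The size of the *Defb18* difference depends on the 0.1 FPKM added, as the gene was at 0 in each bilateral OD library. *Adam7* was at 4942 ± 75.2 FPKM on the contralateral and 3190.3 ± 69.8 on the ipsilateral side, with a difference of −7.23 (adjusted p = 5.5e-21). *Lcn10* fell on both, by 2.63 on the log2 scale on the ipsilateral side and by more after bilateral OD (difference −10.26, adjusted p = 6.0e-18). Among rises, the change was higher after bilateral than after unilateral OD for *Kif12* (difference 7.38, adjusted p = 1.3e-07), *Rasl11a* (4.63, 3.5e-13) and *Cst3* (2.02, 1.3e-11). Their estimates after unilateral OD were 0.43, 0.40 and −0.24 on the log2 scale. *Gabrp* was at 0 in every library of both sides. The reverse also held for some secretory genes, which kept more after bilateral OD than on the ipsilateral side after unilateral OD. *9230104L09Rik* was at 8461 ± 372 FPKM on the contralateral and 35.6 ± 10.5 on the ipsilateral side, a change of −7.93 against −1.7 after bilateral OD (difference 6.22 ± 0.19, adjusted p = 3.2e-13). The cystatin genes *Cst11* (−4.41 against −2.57, adjusted p = 3.2e-04) and *Cst12* (−4.01 against −1.62, adjusted p = 0.0092) had differences in the same direction. The bilateral and unilateral operations also differed in their controls, which were other mice for bilateral OD and the other side of the same mice for unilateral OD. That pairing of sides was not used in the main fit.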

How the data were processed

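Whole IS-caput tissue of 18 libraries in 6 groups of 3 was measured by RNA-seq. Per the study's methods and processing notes, the authors mapped reads with TopHat2 2.1.1 to mm10 and deposited FPKM per gene from Cufflinks 2.2.1, and how reads shared by gene copies were divided is not given in the sources used here. Read counts were not used here, so depth is unknown. Steps of the low values gave the relative worth of 1 read as 1, 0.953 and 0.871 in sham and 0.779, 0.599 and 0.722 after bilateral OD, so the bilateral OD libraries had the finer steps.

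Genes reaching 0.1 FPKM in at least 3 of the 18 libraries were tested (17302), and 7044 were not, 4620 of them at 0 in every library. Log2(FPKM + 0.1) was fitted with limma 3.58.1 (R 4.3.3) to the 6 groups with 12 residual degrees of freedom. These were sham, bilateral OD and both sides after unilateral OD at 12 weeks, and *Nell2* knockout and wild-type mice at 14 weeks. All 6 groups fed the shared estimate of spread, and the pairing of both sides of a mouse was not used. The p-values were adjusted by Benjamini-Hochberg over all genes tested, with a threshold of 0.05. Fold changes on this scale understate changes of low genes. At least 10-fold refers to the ratio of mean FPKM among called genes. Shares were compared by the exact permutation test. Tables were made with Python 3.11.15, pandas 2.3.3 and numpy 2.4.6, and the fit was tested on simulated data.

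Genes named are the 12 largest changes by log2 in each direction among called genes averaging 10 FPKM or more whose ranges do not overlap, the 10 largest by FPKM, the 5 of smallest adjusted p, the 5 highest among genes at 0 in the other group, and of each list up to 4 of its most abundant members and that of smallest adjusted p. The 88 gene lists and all members were chosen with earlier results of these data known. Alternatives were the amount added before logs, the filter, 2 scalings, a fit of 6 libraries, the rule of the study's methods (an unequal-variance test of FPKM with no adjustment), a replicate block, a length correction and leaving out each replicate. Gene positions and promoter windows were taken from RefSeq on GRCm38.p6. A few genes are not reported here.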

Additional observations from a re-analysis of the deposited data

Results flagged for a closer look

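Of 221 genes named above and tested, 180 had a called difference between bilateral and unilateral OD, by limma with Benjamini-Hochberg adjustment. In 43 of them the estimates had opposite signs, whatever their size, as for *Eppin* (−5.54 and 0.02). Of these, 3 had estimates of at least 2-fold in opposite directions after the 2 operations. Only the difference of the changes was tested, and the unilateral change itself was not. *Lypd8*, of the Ly6 family, changed by −8.54 on the log2 scale after bilateral OD and by 1.08 on the ipsilateral side after unilateral OD (difference −9.62 ± 0.12, adjusted p = 4.1e-19), where it was at 3677 ± 159 FPKM on the contralateral and 7807 ± 896 on the ipsilateral side. *Lcn5* changed by −4.4 and 1.19 (difference −5.59 ± 0.59, adjusted p = 5.6e-06), and *Spink11* by −2.22 and 1.2 (difference −3.42 ± 0.35, adjusted p = 2.9e-06). Without sham replicate 3, which was high for *Lcn5*, its difference was −4.96 ± 0.33 (adjusted p = 5.2e-08) and that of *Spink11* was −3.04 ± 0.21 (adjusted p = 2.1e-08).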

How the results depend on the processing

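Without the 100 highest genes of each group in the total, 3414 genes were lower and 8116 higher, the difference from unilateral OD was called lower in 1715 and higher in 6715, and the lower counts were 9 for fatty acid oxidation and 11 for aminoacyl-tRNA synthetases. *B2m* (log2 −0.05), *Gapdh* (−0.08), *Gja1* (−0.10), *Odf2* (−0.07) and *Trp63* (−0.31) then lost their call, and *Csf1r* (0.48), *Hoxd9* (0.47), *Krt5* (0.52), *Sod1* (0.38) and *Tagln* (0.41) gained one as higher. *Krt18* was called then too, as 5 of the 10 principal cell markers were lower and 5 higher. With only genes reaching 1 FPKM, 374 genes fell and 103 rose at least 10-fold and 7 ciliated cell markers were higher, a filter that removes low genes by construction. The share of glutathione peroxidases differed by 0.0323 points without *Gpx5* and that of WAP and Kazal inhibitors by −0.534 points without *Spink8*, each opposite to the full family. Other settings gave 4439 to 5451 genes lower and 4156 to 5602 higher, the fewest under the rule of the study's methods, which was not run for the difference between operations. Under that rule 13 genes named lost their call, *Adgre1*, *Cma1*, *Dcn*, *Defb30*, *Fabp4*, *Igfbp3*, *Lcn3*, *Lcn5*, *Mir760*, *Rnase13*, *Spink11*, *Tcf7* and *Trp63*. Lower counts that moved by over 1.5 times under it were 12 for β-defensins, 9 for WAP and Kazal inhibitors, 6 for serpins, 3 for basal cell markers and 2 for the RNase A family. Higher counts that did so were 6 for matrix proteases, 5 for complement, 2 each for macrophage, pericyte and cholesterol efflux genes, 1 each for mast cell, B and plasma cell, MHC class II, nerve and mesothelial genes, and 0 for adipocyte, neutrophil and lymphatic endothelial markers. Of 221 genes named and tested, 213 were called, of which 18 lost the call under at least 1 alternative and 0 reversed. Sign changes of the 8 uncalled genes were not counted. With 1 replicate left out, log2 changes ran from −0.25 to 0.008 for *Acta2* and −0.30 to 0.044 for *Crisp1*. They ran from −0.12 to 0.012 for *Krt18* and −0.013 to 0.23 for *Tagln*. *Dcn*, *Fabp4* and *Lcn3* lost their call in a fit of only the sham and bilateral OD libraries (adjusted p = 0.090, 0.056 and 0.063), and *Cst12* with 0.01 FPKM added (0.19).

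Leaving out each replicate in turn gave 5060 to 5272 genes lower, 4788 to 5057 higher, 572 to 609 at least 10-fold lower and 251 to 318 at least 10-fold higher. *Lcn3* lost its call without sham replicate 1 (log2 −1.87, adjusted p = 0.065) or 2 (−1.54, 0.088), and *Krt5* (0.53) and *Csf1r* (0.32) gained one without bilateral OD replicate 1. Interferon-stimulated genes numbered 5 higher without bilateral OD replicate 3, and cytokine genes 3 without replicate 2. Equal replicate numbers did not pair sham with bilateral OD libraries, which came from different mice, with correlations of deviations of −0.059, −0.027 and −0.025. The same check was not made for the contralateral and ipsilateral sides, which came from the same mice. A fit with the replicate number as a block gave 5290 genes lower, 5068 higher, 586 and 256 at least 10-fold, and differences from unilateral OD in 3163 and 2864. A correction for gene length, chosen after seeing the data, gave 5191 lower and 5124 higher of 16602 genes. Depth was not given, so counting error is unknown, and values near 0.1 FPKM rest on few reads.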

Other observations

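A pair of abundant genes outside the lists, chosen after their values were seen, also fell. *Ovch2*, encoding a serine protease of the initial segment and caput, went from 1159, 1165 and 1036 FPKM to 4.15, 3.64 and 3.59 (log2 change −8.17 ± 0.11, adjusted p = 7.8e-19), and *Mfge8*, encoding a secreted protein that binds sperm and dying cells, from 4982, 5011 and 4557 FPKM to 485, 415 and 428 (log2 change −3.46 ± 0.08, adjusted p = 2.2e-16). In neither gene did the groups overlap.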
